A study of Mus musculus with 12 samples.

Results

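The chains of type VI collagen encoded by Col6a1, Col6a2 and Col6a3 were followed across mouse spinal cord lesions with dense or attenuated scarring and uninjured cord. They are 3 of the 37991 genes in the count table, were taken by gene symbol, and all 3 passed the filter on low counts. RNA-seq covered 12 adult mice over 8 weeks old on a C57bl/6J background, 4 in each of 3 groups, and the genotype of all 12 was Glast-CreERT2 with R26R-YFP and Rasless. Rasless lines, as background, lack Hras and Nras in all cells and lose the remaining Ras gene where Cre is active, so that the controls carry these alleles too. SCI Tam mice were given 2 mg of tamoxifen a day for 5 days, left for 7 days, and given a dorsal hemisection at high thoracic level. Their lesions, described by the submitters as holding attenuated scarring by pericyte-derived cells, were collected 14 days later. SCI Veh mice were given the solvent on the same schedule and the same injury, and their lesions, with dense scarring by such cells, were also collected at 14 days. Uninjured mice are labelled as given vehicle and no injury, so no group was given tamoxifen without injury, and a response to tamoxifen itself cannot be told apart from the loss of Ras in the targeted cells. Cre in this line is tied to Slc1a3 (Glast), a glutamate transporter gene that astrocytes also express, and the RNA came from whole dissected tissue. Fewer cells of a type and less RNA per cell cannot be told apart in such samples. The number in each title is used here as the name of the mouse. The labels give no litter, cage or preparation, so the tests measure only the spread between these libraries, part of which may be technical.

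Type VI collagen is assembled inside the cell from an α1, an α2 and an α3 chain, encoded by Col6a1, Col6a2 and Col6a3, and is secreted to form beaded microfilaments in the extracellular matrix. These filaments lie where basement membranes meet the fibrous matrix around them. Fibroblasts are a main source in many tissues, and in the central nervous system the chains are known from meningeal and perivascular cells. The α3 chain is the largest, and its C-terminal end is cut off after secretion to give a fragment called endotrophin. Inherited defects in these genes cause Bethlem myopathy and Ullrich congenital muscular dystrophy.

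Col6a1 and Col6a2 lie side by side on mouse chromosome 10 with no other coding gene between them, in the order Ftcd, Col6a2, Col6a1, Pcbp3. Col6a3 is alone on chromosome 1, between Cops8 and Mlph. The 3 promoters are shown because genes at these separate places had nearly the same profile over the 12 libraries. Each window runs from 250 bases before to 50 bases after the annotated start, 5′ to 3′ on the minus strand, as given by RefSeq on GRCm38.p6. The windows lie at chr10:76725995-76726294 for Col6a1, at chr10:76623355-76623654 for Col6a2 and at chr1:90843922-90844221 for Col6a3. Capitals mark every match, on either strand, of 3 motifs: TGANTCA (AP-1), CCCTCCC, and the GC box GGGCGG.
Col6a1: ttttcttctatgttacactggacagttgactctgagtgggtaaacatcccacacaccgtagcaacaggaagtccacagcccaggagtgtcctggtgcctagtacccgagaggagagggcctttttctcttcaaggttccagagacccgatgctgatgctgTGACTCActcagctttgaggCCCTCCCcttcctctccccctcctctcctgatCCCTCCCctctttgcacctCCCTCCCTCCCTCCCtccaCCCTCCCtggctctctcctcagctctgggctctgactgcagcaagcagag
Col6a2: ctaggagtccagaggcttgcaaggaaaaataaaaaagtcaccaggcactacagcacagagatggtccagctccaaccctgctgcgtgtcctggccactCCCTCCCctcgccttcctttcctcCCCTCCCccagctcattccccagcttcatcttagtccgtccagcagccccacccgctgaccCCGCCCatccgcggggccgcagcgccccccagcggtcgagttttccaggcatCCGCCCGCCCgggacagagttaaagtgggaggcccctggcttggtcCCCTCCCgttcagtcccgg
Col6a3: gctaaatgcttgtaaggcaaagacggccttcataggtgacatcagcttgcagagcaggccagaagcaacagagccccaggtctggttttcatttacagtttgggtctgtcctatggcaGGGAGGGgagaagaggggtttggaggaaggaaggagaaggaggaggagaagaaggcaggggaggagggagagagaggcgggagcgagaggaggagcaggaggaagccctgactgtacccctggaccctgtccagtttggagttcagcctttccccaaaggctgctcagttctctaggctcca
The Col6a1 window held CCCTCCC 6 times, some of them overlapping, between 70 bases before the start and the start itself, and TGANTCA at position -90. The Col6a2 window held CCCTCCC 3 times, at -152, -128 and +32, and the GC box 3 times in reverse, at -67, -15 and -11, where the last 2 overlap. The Col6a3 window held CCCTCCC in reverse at -132 and neither of the other motifs. None of these 3 windows held TATAAA. Of 32851 windows of this length in the RefSeq table, 22.0% held CCCTCCC, 1.65% held it at least 3 times, 7.81% held TGANTCA, 35.7% held GGGCGG and 13.6% held TATAAA. The GC content was 57.3% for Col6a1, 64.3% for Col6a2 and 56.3% for Col6a3, against a mean of 53.8% over all windows. A match describes letters in the window, and says nothing of which factor binds there. Col6a2 has another annotated start, whose window overlaps the one printed.

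Library totals ran from 7967970 to 12581324 counts. Marker transcripts of spinal cord were present in every library: the 10 fixed markers summed to 24720 to 27400 CPM (counts scaled by library size and TMM factor) in SCI Tam, 20530 to 24300 CPM in SCI Veh and 18260 to 21870 CPM in Uninjured libraries. Skeletal muscle transcripts varied within groups. The mean log2 CPM of the 13 muscle markers was 1.12, 1.29, 0.571 and 1.6 in SCI Tam mice 452, 513, 549 and 564. It was 4.43, 1.15, 3.92 and 5.35 in SCI Veh mice 402, 428, 429 and 457, and 0.546, 4.94, 3.11 and 0.634 in Uninjured mice 376, 377, 385 and 467. Thus 3 SCI Veh and 2 Uninjured libraries stood high in muscle transcripts, and no SCI Tam library did. The 3 SCI Tam libraries other than mouse 452 carry sample names in a separate number series (106 to 108, against 1 to 20 for the other 9). A library was taken as male where Y-linked transcripts summed to more CPM than Xist, which held for 0 SCI Tam, 3 SCI Veh and 1 Uninjured library. Of the line's genes Hras1, Nras and Slc1a3 were read, and the remaining Ras gene, which Cre targets, was not. None of those read differed between the lesion groups by the test. In SCI Tam and SCI Veh lesions Hras1 averaged 15.2 ± 1.51 and 15.4 ± 1.28 CPM, and Nras 17.9 ± 2.46 and 18.3 ± 3.73 CPM. Slc1a3 averaged 213 ± 19.7 CPM in SCI Tam and 197 ± 11.5 CPM in SCI Veh lesions (SD, n = 4 each). The labels do not say which exons the alleles lack, so these levels check no genotype.

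All 3 chains were far lower in SCI Tam than in SCI Veh lesions, by 8.57-fold for Col6a1, 8.94-fold for Col6a2 and 12.6-fold for Col6a3. All 3 were far higher in SCI Veh lesions than in Uninjured cord, by 12.3-fold, 13.9-fold and 15.2-fold. Between SCI Tam lesions and Uninjured cord no chain passed the test. Levels per transcript length, as the authors' FPKM (fragments per kilobase of transcript, scaled by depth), put the chains in the same order of groups.

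Col6a1 (ENSMUSG00000001119), which encodes the α1 chain, had 33.9, 29.7, 28.0 and 55.0 CPM in SCI Tam mice 452, 513, 549 and 564. It had 352, 174, 303 and 428 CPM in SCI Veh mice 402, 428, 429 and 457, and 30.2, 30.8, 24.8 and 16.8 CPM in Uninjured mice 376, 377, 385 and 467. Every SCI Veh library lay above every other library, while the SCI Tam and Uninjured ranges overlapped. The fall in SCI Tam against SCI Veh lesions was -3.10 on the log2 scale (SE 0.29, 95% interval -3.74 to -2.46, adjusted p = 0.00025). The rise in SCI Veh lesions over Uninjured cord was 3.62 (SE 0.30, adjusted p = 3.81e-06). SCI Tam lesions and Uninjured cord differed by 0.52 (95% interval -0.12 to 1.16, adjusted p = 0.161). The raw counts behind these levels ran from 283 to 599 in SCI Tam, from 1407 to 5456 in SCI Veh and from 191 to 359 in Uninjured libraries. All log2 changes of this kind are from edgeR's quasi-likelihood test with Benjamini-Hochberg adjustment over 16473 genes.

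Col6a2 (ENSMUSG00000020241), which encodes the α2 chain, had 37.1, 27.9, 29.5 and 48.3 CPM in the SCI Tam mice in the same order. It had 359, 180, 288 and 447 CPM in the SCI Veh mice, and 29.3, 27.6, 21.4 and 13.8 CPM in the Uninjured mice. Mouse 564 was again the highest of the SCI Tam mice and mouse 467 the lowest of the Uninjured ones, and the ranges of these groups overlapped. Col6a2 changed by -3.16 in SCI Tam against SCI Veh lesions (SE 0.29, 95% interval -3.79 to -2.53, edgeR adjusted p = 0.00025) and by 3.80 in SCI Veh lesions against Uninjured cord (SE 0.30, adjusted p = 3.16e-06). The difference between SCI Tam lesions and Uninjured cord was 0.64 (SE 0.30, adjusted p = 0.0911). It came under the threshold of 0.05 when SCI Veh mouse 428 was left out of the fit, which moved the adjusted p to 0.0496.

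Col6a3 (ENSMUSG00000048126), which encodes the α3 chain, had 16.7, 12.4, 15.9 and 27.0 CPM in the SCI Tam mice. It had 233, 94.1, 246 and 334 CPM in the SCI Veh mice, and 16.5, 16.4, 17.3 and 9.66 CPM in the Uninjured mice. It was the least counted of the 3, with 133 to 294 raw counts in SCI Tam, 762 to 4257 in SCI Veh and 110 to 197 in Uninjured libraries. Here too mouse 428 was the lowest of the SCI Veh mice and still lay above all SCI Tam and Uninjured libraries. Col6a3 changed by -3.65 in SCI Tam against SCI Veh lesions (SE 0.36, 95% interval -4.43 to -2.88, edgeR adjusted p = 0.00025) and by 3.93 in SCI Veh lesions against Uninjured cord (SE 0.36, adjusted p = 6.74e-06). SCI Tam lesions and Uninjured cord differed by 0.27 (95% interval -0.53 to 1.07, adjusted p = 0.569).

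**Figure D1:**
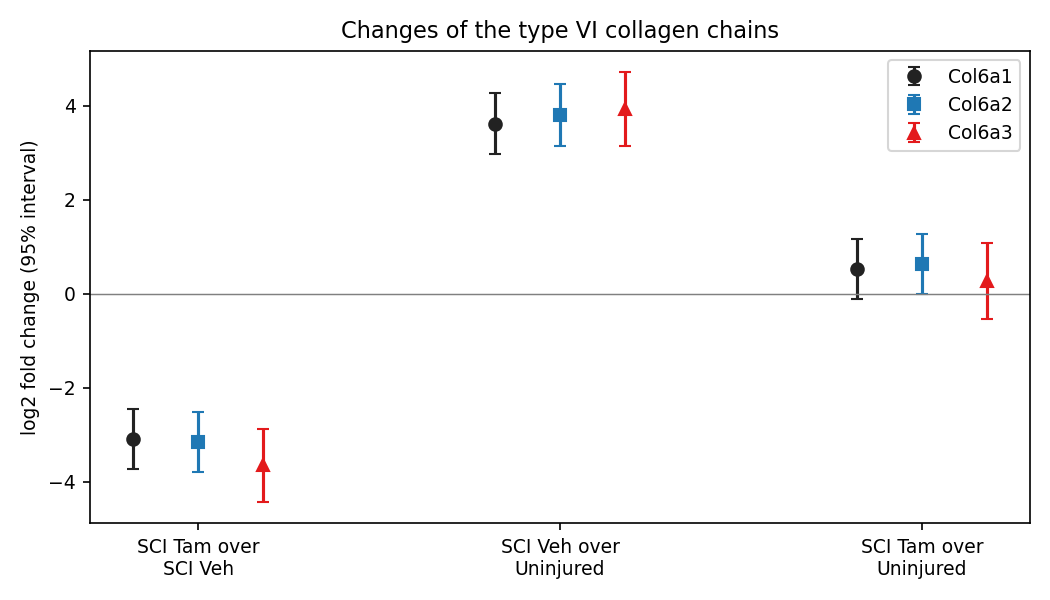
Log2 fold changes of the 3 chains from edgeR in each comparison, with 95% intervals; positive values mean higher in the group named first. In SCI Tam over SCI Veh all 3 intervals lie below 0, in SCI Veh over Uninjured all 3 lie above 0, and in SCI Tam over Uninjured all 3 reach below 0.

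The 3 of 3 chains that fell in SCI Tam against SCI Veh lesions stand beside 8.33% of all 16473 genes that fell in that comparison, and 7.79% rose. The 3 of 3 that rose in SCI Veh lesions against Uninjured cord stand beside 26.7% of all genes that rose, and 24.1% fell. No chain was called between SCI Tam lesions and Uninjured cord, where 48.9% of all genes were called in either direction, 26.3% higher and 22.7% lower. For the chains, all SCI Tam libraries lay below all SCI Veh libraries, which held for 8.77% of all genes, and all SCI Veh libraries lay above all Uninjured ones, which held for 26.3%. The first and second comparison share the SCI Veh libraries, so their calls are not independent of each other.

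Skeletal muscle tissue also holds type VI collagen, and within SCI Veh the order of the libraries by Col6a1, 457, 402, 429 and 428, was that of their muscle scores. The score of SCI Veh mouse 428, 1.15, lay inside the SCI Tam range of 0.571 to 1.6, and its 174 CPM of Col6a1 stood against at most 55.0 CPM in SCI Tam mice. Uninjured mouse 377 had a muscle score of 4.94 and 30.8 CPM of Col6a1, close to mouse 376 with a score of 0.546 and 30.2 CPM, while mouse 385 with a score of 3.11 had 24.8 CPM and mouse 467 with a score of 0.634 had 16.8 CPM. With the muscle score as a covariate the change in SCI Tam against SCI Veh lesions was -2.52 for Col6a1, -2.61 for Col6a2 and -2.87 for Col6a3 (edgeR adjusted p = 0.00194, 0.00194 and 0.0024). This fit assumes the same slope in all groups, and no SCI Tam library had a score above 1.6. How much of the chains' RNA came from muscle was not tested. In SCI Tam lesions against Uninjured cord the same covariate gave 0.76 for Col6a1 and 0.87 for Col6a2, which passed (adjusted p = 0.0218 and 0.0142), and 0.60 for Col6a3, which did not (adjusted p = 0.111). With a term for the sample name series the changes in SCI Tam against SCI Veh lesions were -3.21, -3.10 and -3.77 (adjusted p = 0.0409, 0.0427 and 0.0427). That term takes up the 3 SCI Tam libraries named 106 to 108, so every SCI Tam contrast fitted with it rests on SCI Tam mouse 452 alone, which is assumed to vary like the other groups. Without the 5 libraries high in muscle transcripts, mouse 428 was the only SCI Veh library left, and the changes against it were -2.24, -2.33 and -2.38. None of these passed the adjustment (adjusted p = 0.471, 0.362 and 0.362, unadjusted p = 0.000408, 0.00027 and 0.000267), and edgeR called 0 of 17393 genes in that fit, of which 1239 had an unadjusted p under 0.05. In the same fit the chains rose in SCI Veh mouse 428 over the 2 remaining Uninjured mice by 2.87, 3.05 and 2.83 (adjusted p = 0.0343, 0.0322 and 0.0343), with the lone SCI Veh library assumed to vary like the other groups.

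**Figure D2:**
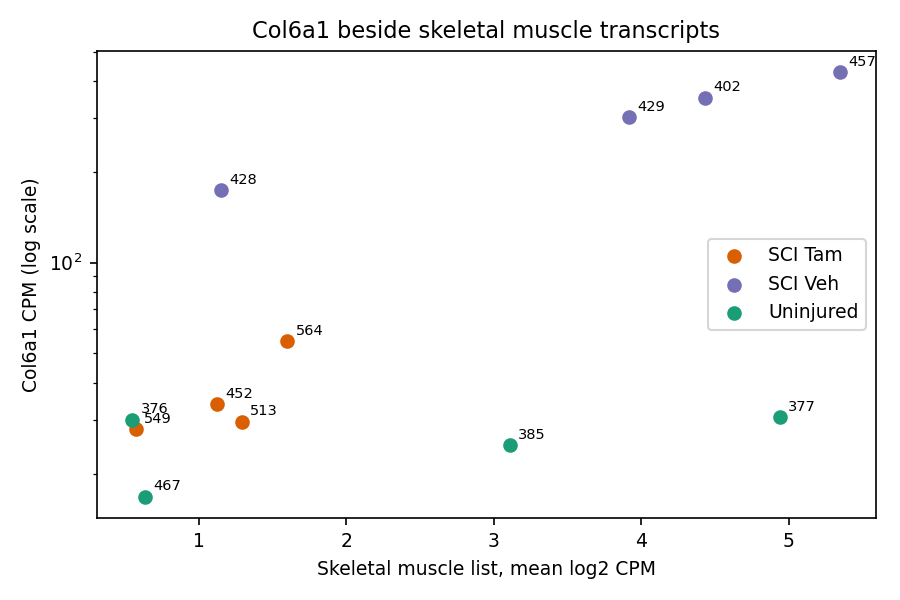
Col6a1 in CPM (log axis) against the mean log2 CPM of 13 skeletal muscle markers, with a point for each library labelled by its mouse number. SCI Veh mouse 428 lies among the SCI Tam mice on the horizontal axis, at a muscle score of 1.15, and above all of them on the vertical axis, and Uninjured mice 377 and 385 have high muscle scores with 30.8 and 24.8 CPM of Col6a1, against 30.2 and 16.8 CPM in Uninjured mice 376 and 467.

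Per transcript length, Col6a1 averaged 8.22 ± 3.01 FPKM in SCI Tam lesions, 68.1 ± 22.9 FPKM in SCI Veh lesions and 6.38 ± 1.11 FPKM in Uninjured cord (SD, n = 4 each). Col6a2 averaged 7.87 ± 2.20 FPKM in SCI Tam, 68.2 ± 23.9 FPKM in SCI Veh and 4.94 ± 1.48 FPKM in Uninjured libraries. Col6a3 averaged 3.47 ± 1.27 FPKM in SCI Tam, 57.7 ± 22.01 FPKM in SCI Veh and 3.09 ± 0.620 FPKM in Uninjured libraries. The FPKM ranges of Col6a1 and Col6a2 overlapped in every group, although Col6a1 was the higher of the pair in each of the 4 Uninjured libraries. Col6a3 had the lowest mean of the 3 in each group. Its range overlapped those of Col6a1 and Col6a2 in SCI Veh lesions, and that of Col6a2 in Uninjured libraries. The summed FPKM of the chains was 19.6 ± 6.30 in SCI Tam, 194 ± 68.1 in SCI Veh and 14.4 ± 3.01 in Uninjured libraries. Among 40 collagen chain genes ranked by mean FPKM, Col6a1, Col6a2 and Col6a3 stood at places 11, 13 and 22 in SCI Tam, at places 5, 4 and 6 in SCI Veh and at places 10, 15 and 17 in Uninjured libraries. Among 16403 genes their places in SCI Veh lesions were 1148, 1140 and 1442.

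**Figure D3:**
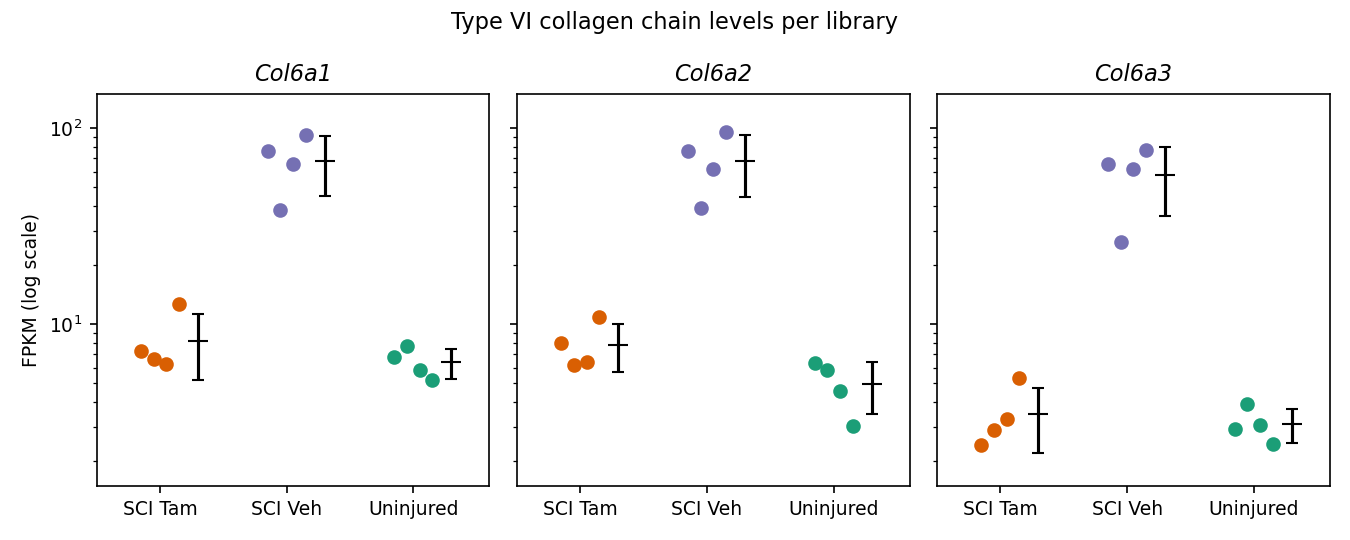
FPKM of each chain in every library on a log axis, with the group mean and SD as a bar beside the points (4 libraries per group). For each chain the SCI Veh points lie above all SCI Tam and Uninjured points, and the SCI Tam and Uninjured points overlap.

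Whether the chains kept their proportions was read from ratios within each library, which need no scaling between libraries. From counts, the log2 ratio of Col6a3 to Col6a1 averaged -1.03 ± 0.18 in SCI Tam, -0.53 ± 0.27 in SCI Veh and -0.77 ± 0.18 in Uninjured libraries (SD, n = 4 each). The difference of SCI Tam minus SCI Veh lesions was -0.50 (two-sided exact permutation p = 0.0571, 0.154 after adjustment over the 9 ratio comparisons). The log2 ratio of Col6a3 to Col6a2 averaged -1.01 ± 0.17 in SCI Tam lesions and -0.60 ± 0.24 in Uninjured cord, a difference of -0.41. This was the only comparison of counts in which the ranges did not overlap (exact permutation p = 0.0286, the smallest that 4 against 4 allows, and 0.154 after adjustment). The ratio of Col6a2 to Col6a1 differed by -0.04 between SCI Tam and SCI Veh lesions (exact permutation p = 0.657) and by 0.19 between SCI Veh lesions and Uninjured cord (exact permutation p = 0.0571). None of the 9 ratio comparisons from counts passed the adjustment. A ratio at the smallest p of 0.0286 could pass over 9 only if several others reached that p too. The adjusted test therefore cannot decide whether the proportions shifted at this number of libraries.

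Ratios of FPKM differed from those of counts. The FPKM ratio of Col6a3 to Col6a1 was 0.428 ± 0.0814 in SCI Tam, 0.832 ± 0.107 in SCI Veh and 0.484 ± 0.0434 in Uninjured libraries (SD, n = 4 each). Its SCI Veh values lay above all others, with a log2 difference of -0.97 in SCI Tam against SCI Veh and 0.78 in SCI Veh against Uninjured (exact permutation p = 0.0286 each, 0.0643 after adjustment over 9). Between SCI Tam lesions and Uninjured cord the FPKM gave a log2 difference of -0.19, against -0.26 from counts. For Col6a2 to Col6a1 in SCI Veh lesions against Uninjured cord the FPKM gave 0.41 (exact permutation p = 0.0286, 0.0643 after adjustment), against 0.19 from counts. For Col6a3 to Col6a2 in SCI Tam against SCI Veh lesions they gave -0.93 (exact permutation p = 0.0286, 0.0643 after adjustment), against -0.46 from counts. Col6a3 made up 17.8 ± 2.98% of the summed FPKM in SCI Tam, 29.3 ± 3.04% in SCI Veh and 21.6 ± 2.30% in Uninjured libraries. The FPKM and counts of Col6a3 did not keep a fixed relation. Its CPM per FPKM ran from 4.28 to 6.91 in SCI Tam, from 3.56 to 4.32 in SCI Veh and from 3.96 to 5.67 in Uninjured libraries, whereas that of Col6a2 stayed between 4.42 and 4.74 in all 12. The CPM per FPKM of Col6a1 ran from 4.34 to 4.63 in SCI Tam, from 4.55 to 4.63 in SCI Veh and from 3.25 (mouse 467) to 4.42 in Uninjured libraries. Which transcript lengths the FPKM rest on is not given in the sources used here, and the part of isoform use or of the estimate in this was not tested.

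**Figure D4:**
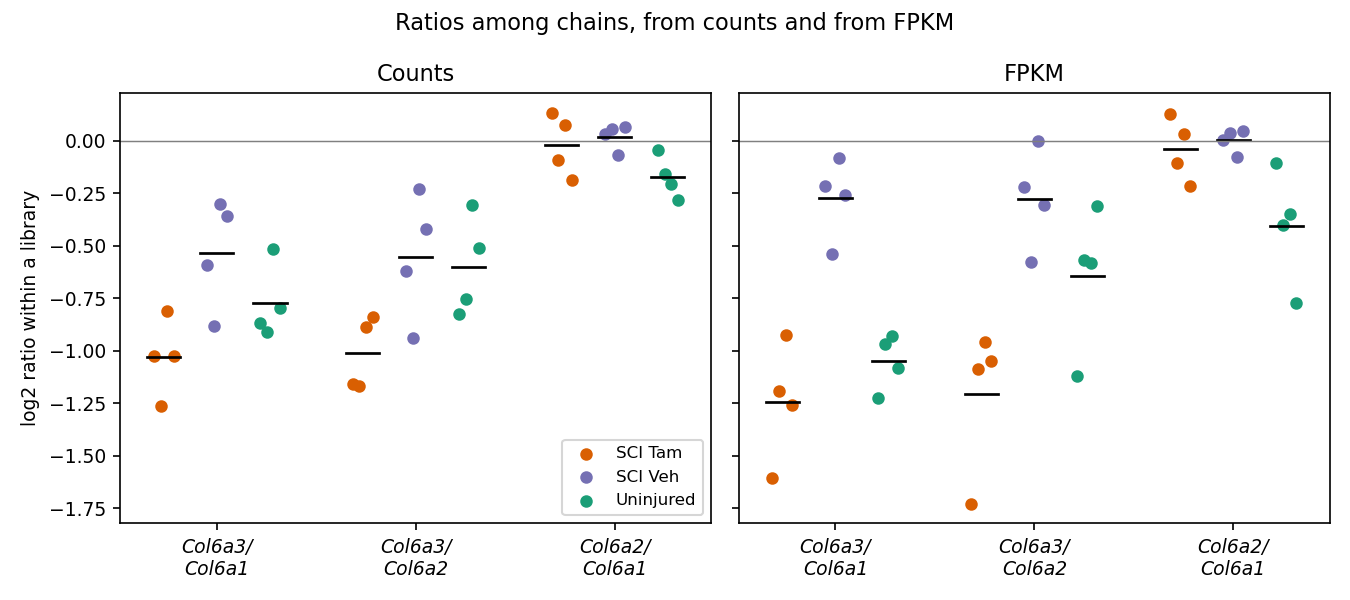
Log2 ratios between chains within each library, from counts (left) and from the authors' FPKM (right), with a line at each group mean. From counts the groups overlap except for Col6a3 to Col6a2 in SCI Tam against Uninjured. From FPKM the SCI Veh points of Col6a3 to Col6a1 lie above all others. Those of Col6a3 to Col6a2 lie above all SCI Tam points, and those of Col6a2 to Col6a1 above all Uninjured points.

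The genome holds 3 further type VI chains, Col6a4, Col6a5 and Col6a6, which lie side by side on mouse chromosome 9 and whose products are thought to be able to take the place of the α3 chain. Col6a5 had 1 to 5 counts in SCI Tam, 37 to 96 in SCI Veh and 2 to 5 in Uninjured libraries. It averaged 0.264 ± 0.240 CPM in SCI Tam, 6.27 ± 2.71 CPM in SCI Veh and 0.318 ± 0.0896 CPM in Uninjured libraries (SD, n = 4 each), which rests on 10 counts in all SCI Tam, 253 in all SCI Veh and 14 in all Uninjured libraries. It fell by 4.61 on the log2 scale in SCI Tam against SCI Veh lesions (edgeR adjusted p = 0.00025, 0.0533 with the sample name series term). It rose by 4.22 in SCI Veh lesions over Uninjured cord (adjusted p = 1.15e-05). With at most 5 counts in SCI Tam and Uninjured libraries, Col6a5 passed the filter (minimum count 10) only through its SCI Veh libraries. The filter thus favoured both calls. Col6a6 averaged 8.41 ± 2.70 CPM in SCI Tam, 15.0 ± 5.37 CPM in SCI Veh and 6.50 ± 2.61 CPM in Uninjured libraries (SD, n = 4 each). It rose in SCI Veh lesions over Uninjured cord by 1.21 (edgeR adjusted p = 0.0105), and its difference of -0.83 between SCI Tam and SCI Veh lesions did not pass (adjusted p = 0.109). Per length these chains stayed under the main ones: in SCI Veh lesions Col6a5 averaged 0.580 FPKM and Col6a6 averaged 1.77 FPKM. Col6a4 had at most 6 counts in any library and was not tested.

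A list of 35 genes that bind, receive, fold, modify or cut type VI collagen, or encode its other chains, was read beside the 3 chains. Of these, 34 were tested, and Col6a5 passed the filter on low counts only through its SCI Veh libraries. In SCI Tam against SCI Veh lesions 20 fell and 0 rose (edgeR; median log2 change -0.86, against 0.00 over all genes), beside 16.1% of all genes called in either direction. In SCI Veh lesions against Uninjured cord 31 rose and 1 fell (median 1.59, against 0.02 over all genes), beside 50.8% of all genes called. In SCI Tam lesions against Uninjured cord 18 rose and 2 fell (median 0.53, against 0.01 over all genes), beside 48.9% of all genes called, 26.3% higher and 22.7% lower. The count of 20 called in SCI Tam against SCI Veh lesions was 4 with the muscle score as a covariate (Col6a5, Matn2, Hspg2 and P4ha2) and 1 with the sample name series term (Matn2). It was 0 without the 5 libraries high in muscle transcripts, in edgeR, where 12 partner genes had an unadjusted p under 0.05. In SCI Veh lesions against Uninjured cord the count of 32 held under both terms and was 4 without those 5 libraries, and in SCI Tam lesions against Uninjured cord the count of 20 was 7 with the series term and 12 without those libraries.

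Of the 8 binding partners, 7 fell and 0 rose in SCI Tam against SCI Veh lesions, beside 8.33% of all genes that fell. Biglycan (Bgn), a small proteoglycan that binds type VI collagen and helps its filaments form networks, averaged 83.4 ± 11.9 CPM in SCI Tam and 312 ± 103 CPM in SCI Veh lesions (SD, n = 4 each). It fell by 1.91 on the log2 scale (edgeR adjusted p = 0.00215). Matrilin-2 (Matn2), an adaptor of matrix filaments, fell by 1.53 to 26.7 ± 0.547 CPM in SCI Tam, against 76.8 ± 16.8 CPM in SCI Veh lesions (adjusted p = 0.00025). Matn2 was the binding partner with the smallest p. Perlecan (Hspg2), the main heparan sulfate proteoglycan of basement membranes, fell by 1.93 to 71.6 ± 10.3 CPM in SCI Tam, against 272 ± 57.2 CPM in SCI Veh lesions (adjusted p = 0.000835). Vwa1, a small basement membrane protein that links type VI collagen to perlecan, was the binding partner that did not fall. It averaged 80.8 ± 7.86 CPM in SCI Tam, 72.0 ± 7.95 CPM in SCI Veh and 45.8 ± 3.70 CPM in Uninjured libraries, and in SCI Tam lesions it rose over Uninjured cord by 0.82 (adjusted p = 5.04e-05).

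All 8 binding partners rose in SCI Veh lesions over Uninjured cord, beside 26.7% of all genes that rose. Bgn rose by 2.53, Hspg2 by 2.24 and Matn2 by 1.87. In SCI Tam lesions over Uninjured cord 3 of the 8 rose and 0 fell, beside 48.9% of all genes called, 26.3% higher and 22.7% lower. Besides Vwa1 these were fibronectin (Fn1), an adhesive matrix glycoprotein, with a log2 change of 1.76 (edgeR adjusted p = 0.00195), and decorin (Dcn), another small collagen-binding proteoglycan, with 1.04 (adjusted p = 0.0417); neither passed with the series term. Fn1 averaged 517 ± 121 CPM in SCI Tam lesions and 153 ± 77.8 CPM in Uninjured cord (SD, n = 4 each). The call of Dcn was lost when any of 6 libraries was left out (SCI Tam mice 513 and 564, SCI Veh mice 402 and 429, Uninjured mice 385 and 467), with adjusted p up to 0.103.

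Beside 8.33% of all genes that fell in SCI Tam against SCI Veh lesions, 3 of the 8 receptor genes fell and 0 rose. These were Antxr1 and Antxr2, cell surface receptors of the anthrax toxin receptor family that bind type VI collagen, and Itga10, the α subunit of a collagen-binding integrin. Antxr1 averaged 66.2 ± 8.67 CPM in SCI Tam and 130 ± 36.7 CPM in SCI Veh lesions (SD, n = 4 each), a log2 change of -0.98 (edgeR adjusted p = 0.00401). Antxr2, which takes type VI collagen up for breakdown, changed by -1.29 (adjusted p = 0.00715) and Itga10 by -1.30 (adjusted p = 0.00673). Itgb1, the β subunit shared by the collagen-binding integrins, was at 254 ± 40.4 CPM in SCI Tam and 297 ± 35.7 CPM in SCI Veh lesions (adjusted p = 0.178) and rose over Uninjured cord in both, by 0.99 in SCI Tam (adjusted p = 5.76e-05) and by 1.22 in SCI Veh lesions (adjusted p = 7.48e-06). Cspg4, the NG2 proteoglycan that binds type VI collagen at the surface of pericytes and glial progenitors, rose in SCI Tam lesions over Uninjured cord by 0.91 (adjusted p = 0.00338), and did not pass there with the series term. Itga3, the α subunit of an integrin that mainly binds laminin, fell in SCI Tam lesions against Uninjured cord by 0.36 (adjusted p = 0.000687) and in SCI Veh lesions against Uninjured cord by 0.27 (adjusted p = 0.00304).

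Of the 12 folding and modification genes, 6 fell and 0 rose in SCI Tam against SCI Veh lesions, beside 8.33% of all genes that fell. In SCI Veh lesions over Uninjured cord 11 of the 12 rose, beside 26.7% of all genes that rose. Serpinh1, the collagen chaperone HSP47, averaged 58.8 ± 8.48 CPM in SCI Tam and 185 ± 66.8 CPM in SCI Veh lesions (SD, n = 4 each), a log2 change of -1.65 (edgeR adjusted p = 0.00213). P4ha2, a catalytic subunit of collagen prolyl 4-hydroxylase, fell by 1.11 (adjusted p = 0.000645), as did Fkbp10, a collagen chaperone and prolyl isomerase, by 1.11 (adjusted p = 0.00172). P4ha2 also fell in SCI Tam lesions against Uninjured cord, by 0.47 (adjusted p = 0.0094). There 9 of the 12 rose, beside 26.3% of all genes that rose, and P4ha2 alone fell. P4ha3, another such catalytic subunit, had the smallest p of the 9: it rose by 1.70 to 73.7 ± 25.7 CPM in SCI Tam lesions, against 22.8 ± 1.52 CPM in Uninjured cord (adjusted p = 7.99e-05). In SCI Veh lesions P4ha3 averaged 73.8 ± 10.8 CPM, and the lesion groups differed by 0.00 on the log2 scale (SE 0.20, adjusted p = 0.995). The collagen chaperones Fkbp10 and Crtap rose in SCI Veh lesions over Uninjured cord by 2.15 and 1.85.

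Of the 4 cleavage genes, 3 fell in SCI Tam against SCI Veh lesions, beside 8.33% of all genes that fell. All 4 rose in SCI Veh lesions over Uninjured cord, beside 26.7% of all genes that rose. Bmp1, a protease that trims several procollagens, averaged 72.5 ± 14.0 CPM in SCI Tam and 132 ± 16.4 CPM in SCI Veh lesions (SD, n = 4 each), a log2 change of -0.86 (edgeR adjusted p = 0.0035). Pcolce, which enhances Bmp1, changed by -1.89 (adjusted p = 0.0111) and the membrane protease Mmp14 by -1.13 (adjusted p = 0.00293). In SCI Tam lesions over Uninjured cord Bmp1 rose by 0.98 (adjusted p = 0.000221) and Mmp14 by 0.78 (adjusted p = 0.00393), of which Mmp14 did not pass with the series term. Mmp11, which is known to cut the native α3 chain, was at 6.73 ± 1.29 CPM in SCI Tam lesions and 4.39 ± 1.63 CPM in Uninjured cord, and did not pass (adjusted p = 0.0692), although it passed on log2 FPKM with limma and without Uninjured mouse 385.

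Of the other 37 collagen chain genes tested, 23 fell and 0 rose in SCI Tam against SCI Veh lesions, with a median log2 change of -1.31, beside 8.33% of all genes that fell. In SCI Veh lesions over Uninjured cord 30 rose and 2 fell, with a median of 1.82, beside 26.7% of all genes that rose. In SCI Tam lesions over Uninjured cord 15 rose and 2 fell, with a median of 0.59, and the 17 called of 37 stand beside 48.9% of all genes called. These 37 overlap the other lists, so their counts are no separate support. They include Col6a5 and Col6a6, already counted as partner genes, and Col6a5 passed the filter only through its SCI Veh libraries. Col1a1, Col1a2 and Col15a1 are also fibroblast markers, and Col1a2, Col5a1 and Col5a2 are also among the genes of nearest profile given below. The changes of the 3 type VI chains between SCI Tam and SCI Veh lesions, -3.10 to -3.65, were larger than the median of -1.31 over the 37. Some of the 37 fell about as far: Col1a2 changed by -3.02, Col5a2 by -2.93, Col5a1 by -2.81 and Col6a5 by -4.61.

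The genes whose levels most resembled the mean of the 3 chains over all 12 libraries were found by the mean absolute difference of centred log2 CPM, among 13657 genes with a group mean of at least 5 CPM. The 8 nearest were Fndc1 (0.234), Col1a2 (0.235), Col5a1 (0.266), Col5a2 (0.297), Sfrp4 (0.315), Mmp2 (0.32), Eln (0.331) and Tnxa (0.342). The median distance of all genes was 1.55. The chains themselves lay at 0.0822, 0.0978 and 0.157, but each chain is part of the mean it was measured against. Their distances are therefore small in part by construction and cannot be set against those of the other genes. Col1a2 encodes a chain of type I collagen, Col5a1 and Col5a2 encode chains of the fibrillar type V collagen, Eln encodes elastin, Mmp2 a gelatinase and Sfrp4 a secreted Wnt antagonist. Tnxa is a copy of part of Tnxb, whose product binds type VI collagen, and reads of this pair could be split in counting, so its value is uncertain. Over the 9 libraries outside the separate sample name series, 5 of these 8 were again among the 8 nearest. Likeness here rests mostly on the step between SCI Veh lesions and the rest, which the 12 libraries share, and is a description.

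Fndc1 averaged 11.1 CPM in SCI Tam, 100 CPM in SCI Veh and 9.08 CPM in Uninjured libraries, and Col1a2 averaged 194 CPM in SCI Tam, 1570 CPM in SCI Veh and 111 CPM in Uninjured libraries. All 8 fell in SCI Tam against SCI Veh lesions, by 2.47 (Tnxa) to 3.44 (Sfrp4) on the log2 scale, beside 8.33% of all genes that fell. The 8 were chosen for likeness to the chains over these same libraries, so their fall follows from the choice and is no separate support. Tnxa averaged 2.18 CPM in SCI Tam, 12.1 CPM in SCI Veh and 1.22 CPM in Uninjured libraries, and met the cut of 5 CPM only through SCI Veh. Neither Fndc1 nor Col1a2 passed the test between SCI Tam lesions and Uninjured cord (edgeR adjusted p = 0.492 and 0.083). Col1a2 passed that test when Uninjured mouse 376 was left out (adjusted p = 0.0341). Whether any of the nearest genes differed from the chains in that comparison was not tested. Col5a2 averaged 33.9 ± 13.9 CPM in SCI Tam lesions and 13.9 ± 2.45 CPM in Uninjured cord (SD, n = 4 each) and rose by 1.29 (edgeR adjusted p = 0.0118). Col5a1 rose by 0.90 (adjusted p = 0.0384), Mmp2 by 0.95 (adjusted p = 0.0461) and Eln by 0.98 (adjusted p = 0.0355) in SCI Tam lesions over Uninjured cord. The call of Col5a1 was lost on leaving out any of 7 libraries (adjusted p up to 0.105), that of Mmp2 any of 9 (up to 0.119) and that of Eln any of 5 (up to 0.0972). None of these 4 passed there with the series term.

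**Figure D5:**
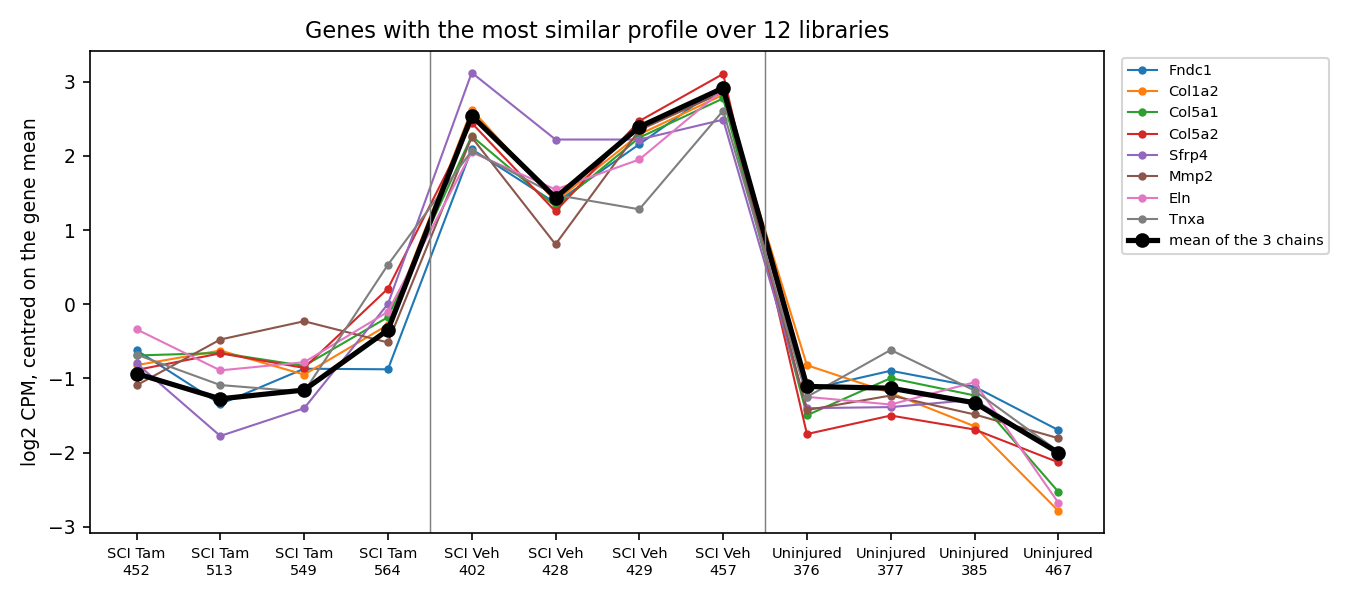
Log2 CPM centred on each gene's mean in the 12 libraries, for the mean of the 3 chains (black) and the 8 nearest genes; lines join a gene's points only to make it visible, since libraries of a group have no order. All lines step up in the SCI Veh libraries, with the lowest SCI Veh values mostly in mouse 428, and the SCI Tam values of mouse 564 stand above those of the other SCI Tam mice for most of the genes.

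Markers of other cell types were read beside the chains, and, apart from the muscle score fitted above, their part in the results was not tested. The 10 fibroblast markers, of which Lum and Dcn are also binding partners and Col1a2 is also one of the nearest genes, summed to 522.6 to 790 CPM in SCI Tam, 2040 to 5399 CPM in SCI Veh and 185.9 to 555.7 CPM in Uninjured libraries. Of them 8 fell in SCI Tam against SCI Veh lesions and all 10 rose in SCI Veh lesions over Uninjured cord. Of all genes, 8.33% fell in the first comparison and 26.7% rose in the second, and the counts below stand beside these shares too. The 10 pericyte and smooth muscle markers summed to 547.8 to 605 CPM in SCI Tam and 641.8 to 799 CPM in SCI Veh lesions, against 301.9 to 459 CPM in Uninjured cord, and 3 fell in SCI Tam against SCI Veh lesions. The 6 meningeal markers summed to 31.7 to 116 CPM in SCI Tam, 110.4 to 304.8 CPM in SCI Veh and 5.18 to 130.4 CPM in Uninjured libraries, and 2 fell in SCI Tam against SCI Veh lesions. The 9 Schwann cell markers summed to 557 to 697.6 CPM in SCI Tam, 722.4 to 967 CPM in SCI Veh and 369.4 to 809.4 CPM in Uninjured libraries, with 1 lower in SCI Tam than in SCI Veh lesions. The 8 macrophage markers summed to 971.2 to 2451 CPM in SCI Tam, 1445 to 2962 CPM in SCI Veh and 127 to 204.2 CPM in Uninjured libraries. Of the macrophage markers 1 fell in SCI Tam against SCI Veh lesions. All 8 rose over Uninjured cord in both lesion groups, beside 26.7% of all genes in SCI Veh and 26.3% in SCI Tam lesions. The 1 lower marker of 8 here, and of 9 for Schwann cells, is close to the 8.33% over all genes. The 13 muscle markers summed to 144.6 to 171.3 CPM in SCI Tam, 154.3 to 865.4 CPM in SCI Veh and 162.3 to 1103 CPM in Uninjured libraries. Most of the SCI Tam sum was Pygm, which astrocytes also express, at 142 ± 17.6 CPM, while Tnnc2 was at 0 in every SCI Tam library and Ckm averaged 0.399 ± 0.421 CPM there. Of the muscle markers 4 of the 12 tested fell in SCI Tam against SCI Veh lesions and 0 rose.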

How the data were processed

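RNA-seq libraries of 12 mice, 4 per group by their titles, were read from 2 deposited tables. The authors deposited raw counts for 37991 Ensembl genes and FPKM values; per the submitters' processing notes, TopHat, Picard, Cufflinks and HTSeq were used on mm9. The sources used here give no settings, roles or strandedness for them. Symbols came from the FPKM table for 37818 genes, and 18 identifiers had more than 1 FPKM entry. No count column lacked a sample. RefSeq on GRCm38.p6 gave promoters and gene neighbours only, and no position from mm9 is mixed with them.

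The counts went into edgeR 4.0.16 (R 4.3.3). Genes were kept by filterByExpr with the groups as design (minimum count 10, minimum total 15) and scaled by TMM. A quasi-likelihood model with a mean per group left 9 residual degrees of freedom, and its contrasts were tested two-sided, with Benjamini-Hochberg adjustment over 16473 genes and a threshold of 0.05. The SE and 95% intervals are not output of edgeR. The SE was the absolute log2 change divided by the square root of the test's F statistic, and the interval used a t quantile. The fit was tested on simulated data. Levels are CPM scaled by TMM; log2 CPM for the profile distance had a prior count of 2. Ratios were tested by exact permutation with scipy 1.17.1. Reads carry no molecular identifiers.

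The 3 chains, the lists and the tests were chosen with earlier results of these data known. Named genes were the 3 chains, the other type VI chains, the 3 genes of each partner list with the smallest p in a comparison, and the 8 nearest profiles; the genes of a list that alone stayed outside its count (Vwa1, Itga3, P4ha2, P4ha3), and muscle markers and line genes beside their sums, were named after their values were seen where the rule did not name them. Alternatives were DESeq2 1.42.0 size factors and its Wald test, library totals alone, no filter or at least 1 CPM in 8 libraries, voom in limma 3.58.1, log2 FPKM in limma with a pseudocount of 1 or of 0.1, the 8 libraries compared, terms for sample name series and sex, a skeletal muscle covariate (mean log2 CPM), and each library left out. Chosen after seeing the data were a fit without the 5 libraries whose muscle score was above 2, and the muscle and sex terms for partner counts.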

Additional observations from a re-analysis of the deposited data

Results flagged for a closer look

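In 39 sets of 4 libraries (a measure of the chains in a group), 5 had a library set apart from the other 3 by Dixon's criterion (a gap to the nearest library that takes up most of the range), where chance gives about 1 in 20 and the measures share values. SCI Tam mouse 564 stood high in Col6a1, at 12.68 FPKM, and in the summed FPKM of the 3 chains, at 28.91. Uninjured mouse 467 stood low in Col6a3, at 9.656 CPM. SCI Veh mouse 428 stood high in the share of Col6a1 in the summed FPKM, at 36.88%, and Uninjured mouse 376 stood low in the share of Col6a3, at 18.15%.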

How the results depend on the processing

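With single libraries left out, the change in SCI Tam against SCI Veh lesions ran from -3.37 to -2.91 for Col6a1, from -3.35 to -2.95 for Col6a2 and from -3.92 to -3.41 for Col6a3, each past the threshold (adjusted p up to 0.00218). Only the fit without the 5 libraries high in muscle transcripts ended these calls (-2.24, -2.33 and -2.38), with 4 residual degrees of freedom. For Col6a1 and Col6a2 in SCI Tam against Uninjured, the muscle covariate gave 0.76 (adjusted p = 0.0218) and 0.87 (adjusted p = 0.0142), past the threshold; leaving out libraries gave 0.25 to 0.63 and 0.45 to 0.76. Of all genes, 2655 were called in SCI Tam against SCI Veh: 57 with the series term, 72 with the muscle covariate, 989 with the sex term, 1513 from the 8 libraries compared, 1519 and 1439 from FPKM with 1 and 0.1 added, 0 without the high-muscle libraries, and 1236 to 4631 with a library left out (1688 without SCI Veh 457; 4631, 1236 and 1324 without SCI Tam 452, 513 and 564). In SCI Veh against Uninjured 8368 were called, and 296 without the high-muscle libraries; in SCI Tam against Uninjured 8063, with 1951 under the series term and 3540 without those libraries. The partner counts that moved are 1, 4 and 0 (of 20), 4 (of 32), and 7 and 12 (of 20), as given above; they ran from 18 to 24, 32 to 33 and 18 to 22 with a library left out. The log2 ratio of Col6a3 to Col6a2 in SCI Veh against Uninjured, 0.05, ran from -0.061 to 0.18 with a library left out, below 0 without Uninjured 376 (-0.028) or 377 (-0.0047) or SCI Veh 429 (-0.061). That of Col6a2 to Col6a1 in SCI Tam against SCI Veh, -0.04, ran from -0.089 to 0.018, above 0 without SCI Tam 564 (0.018). Without sample names 106 to 108, which leaves SCI Tam mouse 452 alone in its group, it was 0.11, and in SCI Tam against Uninjured 0.30. With the series term Col6a5 (0.87) and Col6a6 (-0.30) changed sign in SCI Tam against Uninjured; neither passed in any alternative run. The causes were not tested. No paired analysis was possible because the groups share no replicate numbers. Counts of at most 6 limit Col6a4 in every group, and counts of 1 to 5 limit Col6a5 outside SCI Veh lesions.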
